A study of Mus musculus with 7 samples.

Results

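The genes described here encode the translation initiation factors (eIFs) of regulatory T cells (Tregs), taken as every protein-coding gene whose symbol begins with Eif1, Eif2, Eif3, Eif4, Eif5 or Eif6, without the eIF2 kinases (Eif2ak symbols). Among the 51138 genes counted, 51 met the rule, and 49 of them had enough counts to be tested, among 15954 genes tested in all. RNA was sequenced from Tregs sorted from the spleens of C57/BL6 mice that carry a red fluorescent Foxp3 reporter. The 4 FP samples came from mice injected with 20 ug of FP, a fusion of interleukin-2 with its receptor chain CD25, and the 3 PBS samples from mice injected with 100 uL of PBS; every sample was taken 72 h after the injection. The labels give neither sex nor age, and they do not say that each replicate was a separate mouse, so a p value here measures only how samples spread.

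Translation starts when a small ribosomal subunit loaded with the initiator tRNA is brought to the cap at the end of an mRNA and scans to a start codon. eIF4F recognizes the cap and unwinds the mRNA, eIF3 bridges the mRNA and the small subunit, eIF2 delivers the initiator tRNA and is recharged with GTP by eIF2B, and eIF1, eIF1A and eIF5 control start site choice. In resting T cells protein synthesis is low, and it rises when the cells are activated and grow, with eIF2 alpha phosphorylation and the eIF4E-binding proteins as the classical control points.

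Initiation factor transcripts were mostly higher after FP, by less than 2-fold in nearly every case. Of the 49 genes tested 29 were higher (59.2%, where 21.0% of all genes were), 2 were lower (4.08%, where 18.5% of all genes were) and 18 did not pass the test. Among all genes with a mean of at least 10 CPM (counts scaled to the size of the library), 31.0% were called higher and 15.9% lower, against 61.7% and 4.26% of the 47 initiation factor genes at that level. The call rule was an adjusted p under 0.05 in edgeR's quasi-likelihood test with Benjamini-Hochberg adjustment over all genes tested (39.5% of genes called in either direction). The log2 fold change of FP over PBS (the log2 difference) had a median of 0.54 in the initiation factor genes and -0.05 in all genes. Only Eif5a, Eif3m and Eif3i rose 2-fold or more, and the genes that fell were Eif4a2 and Eif5. In 28 of the 49 genes (57.1%) every FP library lay above every PBS library, which was so in 23.2% of all genes, and in 3 (6.12%, against 23.5%) every FP library lay below, namely Eif4a2, Eif5 and Eif4g3. The complexes differed in how many members were called: 11 of 13 eIF3 genes, 3 of 4 eIF2 genes and 3 of 5 eIF2B genes were higher, and 0 of the 4 eIF4E repressor genes were called in edgeR. Of those 4 genes 2 had an unadjusted p under 0.05, 1 was called in DESeq2 and 0 in limma-voom. Differences between complexes were not tested.

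**Figure D1:**
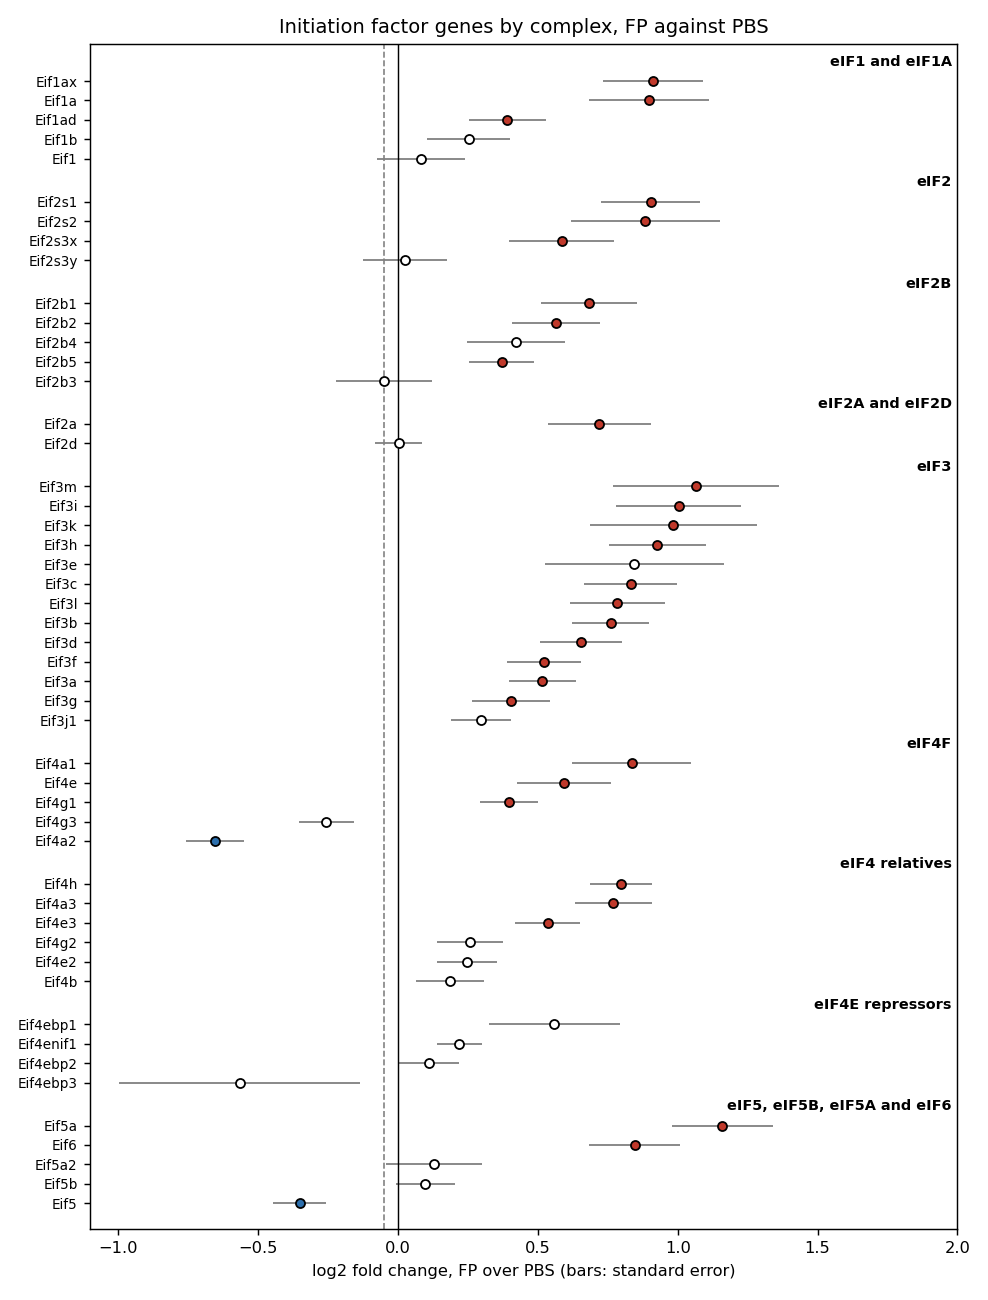
Log2 fold change of each tested initiation factor gene, FP over PBS, with its standard error, grouped by factor complex (red, higher; blue, lower; white, not called; dashed line, median of all genes at -0.05). Every eIF3 gene lies to the right of 0, and Eif4a2 (-0.65) and Eif5 (-0.35) are the genes called lower.

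Values per library are given as CPM of FP replicates 1 to 4 and then of PBS replicates 1 to 3. Total counts ran from 9956509 to 13429878 per library, and the trimmed mean of M values (TMM) factors that scale them ran from 0.839 to 1.05 in the FP and from 1.07 to 1.15 in the PBS libraries. Dividing by library size alone shifted the all-gene median from -0.050 to -0.31 and left 19 initiation factor genes higher and 3 lower. Of all genes called 53.2% were higher with TMM factors, where upper-quartile factors gave 33.2% and library size alone 28.6%, and the median over the initiation factor genes was 0.33 and 0.26 under the latter settings. The calls rested on single libraries in part: without PBS replicate 3 there were 16 higher and 1 lower, and without PBS replicate 2 there were 20 higher. The libraries were not alike within the groups. In all 29 genes called higher FP replicate 4 was the lowest FP library, as in 72.3% of all genes called higher, and in 25 of them PBS replicate 1 was the highest PBS library, as in 61.3%. FP replicates 1 and 2 both lay above FP replicates 3 and 4 in 35 of the 49 genes (71.4%), against 29.4% of all genes tested. Among genes called higher this held for 24 of the 29 (82.8%), against 54.1% of all genes called higher.

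Sums over other genes are given beside those of the initiation factors. The summed CPM of the initiation factor genes was 9520.0, 10058, 7928 and 7078 after FP and 6848, 6279.9 and 5949 after PBS. The 16 proliferation genes, all called higher, summed to 4861, 5036, 4635 and 2797 CPM after FP and 599, 519.6 and 465 CPM after PBS, so that FP replicate 4 was the lowest FP library there too; Mki67, the classical marker of cycling cells, rose by 4.61 on the log2 scale. Cytosolic ribosomal protein genes, chosen after their values were seen, summed to 65229, 59600.0, 37674 and 27682 CPM after FP and 34525, 28043 and 25027 CPM after PBS, and the groups overlapped. Of 77 such genes 19 were higher (24.7%, near the 21.0% of all genes), 0 were lower (18.5% of all genes) and 58 did not pass. Their median log2 fold change was 0.74, against 0.54 in the initiation factor genes. Foxp3, the defining transcription factor of Tregs, was present in each library. It averaged 540.2 ± 52.9 CPM in the FP libraries (SD, n = 4), against 491 ± 7.24 CPM in the PBS libraries (SD, n = 3), and did not pass. Of the 10 Treg and T cell markers, however, 6 were called higher (60.0%), 0 lower and 4 did not pass (median log2 fold change 0.45). Those higher were Il2ra (1.69), Ctla4 (0.97), Ikzf2 (0.54), Trac (0.53), Cd3d (0.48) and Lat (0.42). Without PBS replicate 3 the number higher was 3. Markers of red pulp macrophages and monocytes were lower after FP in 14 of 14 cases, none of them at 0 in all libraries, and their summed level ran from 45.5 to 182 CPM after FP and from 890.1 to 2186 CPM after PBS. B cell markers summed to 31.4 to 40.7 CPM after FP and 33.9 to 58.0 CPM after PBS. The part of proliferation and of these other cells in the initiation factor values was not tested, and in bulk RNA a change in the number of cells of a type cannot be told apart from a change of RNA per cell.

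**Figure D2:**
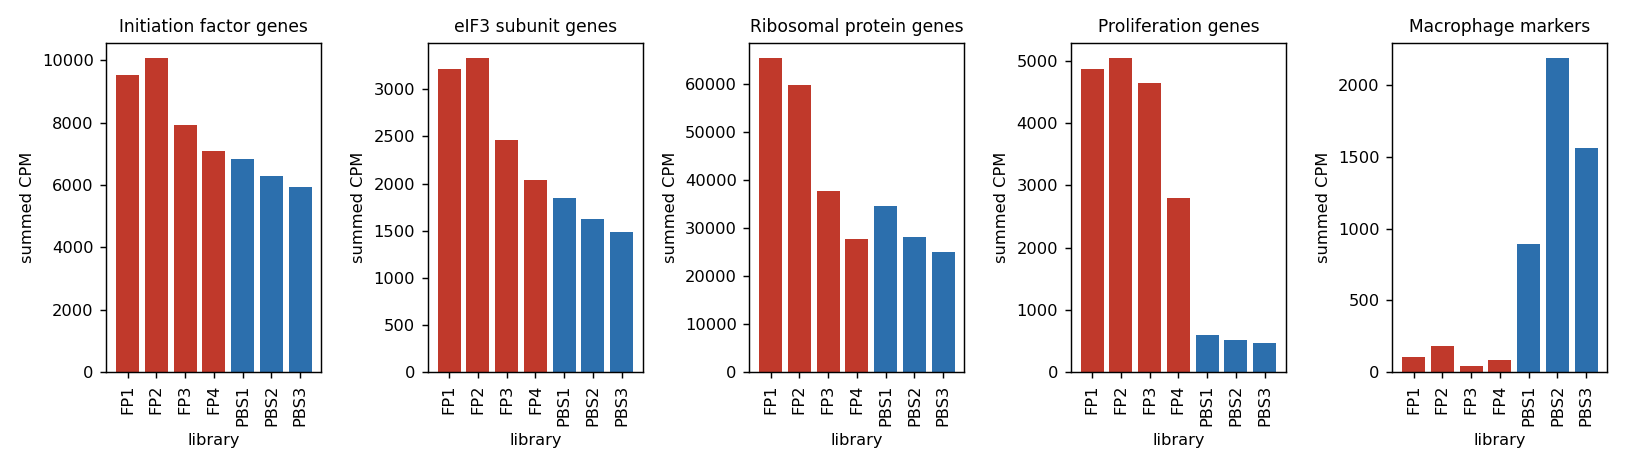
Summed CPM in each library (FP1 to FP4, FP replicates in red; PBS1 to PBS3, PBS replicates in blue) of the tested initiation factor genes, the eIF3 genes, the cytosolic ribosomal protein genes, the proliferation genes and the macrophage and monocyte markers. FP replicate 4 has the lowest FP bar in the initiation factor, eIF3, ribosomal protein and proliferation panels, and the macrophage markers lie between 45.5 and 182 CPM after FP.

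eIF3, the largest initiation factor, holds the small subunit and the mRNA together. All 13 subunit genes tested had a positive log2 fold change, from 0.30 to 1.07 with a median of 0.78, and stayed positive under each other scaling tried; 11 were called higher. Eif3b measured 257, 269, 236 and 179.8 CPM after FP and 149, 143 and 124 CPM after PBS, a log2 difference of 0.76 (adjusted p = 0.00185, SE 0.14). Eif3b is a scaffold of the core of the complex, and all its FP values lay above all its PBS values. Eif3h measured 280.2, 311, 235 and 192 CPM after FP and 159, 130.2 and 112 CPM after PBS, a log2 difference of 0.93 (adjusted p = 0.00228, SE 0.17). Eif3c measured 381, 413, 317 and 248 CPM after FP and 215, 185 and 172 CPM after PBS, a log2 difference of 0.83 (adjusted p = 0.00325, SE 0.17). Eif3c carries the contact with eIF1 and eIF5. The groups did not overlap for Eif3h or for Eif3c. Eif3l measured 166, 181, 138 and 107 CPM after FP and 96.4, 86.3 and 74.5 CPM after PBS, a log2 difference of 0.78 (adjusted p = 0.00535, SE 0.17). Eif3m measured 257, 244, 136 and 117 CPM after FP and 105, 84.4 and 81.0 CPM after PBS, the largest rise of the complex, 2.09-fold (adjusted p = 0.0229). FP replicates 1 and 2 were the high libraries there, and FP replicates 3 and 4 lay closer to PBS replicate 1 than to them. Eif3e measured 429, 414, 198 and 194 CPM after FP and 199, 156 and 160.2 CPM after PBS, with the same order but a larger spread, and its log2 fold change of 0.84 did not pass (adjusted p = 0.0691). The groups overlapped in that gene, which was singled out after its values were seen. Eif3j1 measured 39.6, 36.5, 35.0 and 34.4 CPM after FP and 32.3, 27.8 and 28.6 CPM after PBS, and this loosely attached subunit, which helps in ribosome recycling, had the smallest difference (0.30, adjusted p = 0.0502) although its groups did not overlap.

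The other eIF3 genes that rose were Eif3i (1.0), Eif3k (0.98), Eif3d (0.65), which can bind the cap itself, Eif3f (0.52), Eif3a (0.52), the largest subunit, and Eif3g (0.40). Eif3g had FP replicate 4 (63.8 CPM) within the PBS range of 55.0 to 66.5 CPM. Eif3j2, a copy of Eif3j1, had 2 to 7 counts per library and was not tested. Levels between subunits can be compared per kilobase of annotated exon. On that scale the PBS means ran from 5.07 ± 0.414 CPM per kilobase (SD, n = 3) for Eif3j1 to 83.1 ± 14.6 for Eif3h, with Eif3f at 69.1 ± 7.91 and Eif3c at 54.3 ± 6.28. Subunit genes whose products assemble together thus had unlike levels on this scale. The divisor was the merged annotated exon (1612 bases for Eif3h, 5830 for Eif3j1), and the length of the expressed transcripts was not measured.

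Several of these calls changed when a library was left out or a setting changed, while the log2 fold changes stayed positive. Leaving out each library in turn, the fold change lay between 0.32 and 0.50 for Eif3g, between 0.72 and 1.16 for Eif3k, between 0.88 and 1.24 for Eif3m and between 0.42 and 0.64 for Eif3f on the log2 scale. With the adjusted p in parentheses, Eif3g did not pass with upper-quartile factors (0.174), on library size alone (0.361), in limma-voom (0.0596), without FP replicate 1 (0.0729), without FP replicate 2 (0.0987), without FP replicate 3 (0.0584), without PBS replicate 2 (0.0987) and without PBS replicate 3 (0.166); Eif3k did not pass with no filter (0.117), without FP replicate 2 (0.0825), without PBS replicate 2 (0.0822) and without PBS replicate 3 (0.113); and Eif3m did not pass with no filter (0.0923), without FP replicate 2 (0.0592), without PBS replicate 2 (0.0704) and without PBS replicate 3 (0.0831). Eif3f lost its call on library size alone (0.108), without PBS replicate 2 (0.0500) and without PBS replicate 3 (0.0617), and Eif3a on library size alone (0.0731). In the other direction, Eif3e passed as higher in DESeq2 (0.00763), without FP replicate 3 (0.0235) and without FP replicate 4 (0.0303), and Eif3j1 with DESeq2 size factors (0.0428), in DESeq2 (0.0400), in limma-voom (0.0487), with the filter of 1 CPM in 3 libraries (0.0496), without FP replicate 4 (0.0365) and without PBS replicate 1 (0.0350). Eif3b, Eif3c, Eif3d, Eif3h, Eif3i and Eif3l kept their calls under all 15 alternatives, and leaving out PBS replicate 2 or PBS replicate 3 left 7 eIF3 genes called higher, while leaving out FP replicate 2 left 8.

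**Figure D3:**
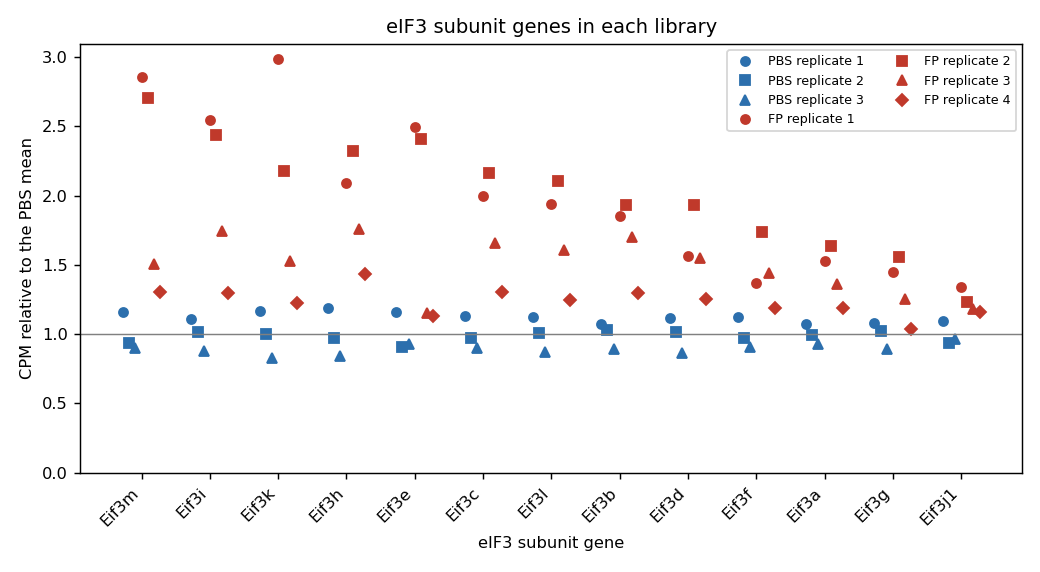
CPM of each tested eIF3 subunit gene in every library, divided by the mean of the PBS libraries (blue, PBS; red, FP; marker shape, replicate). FP replicates 1 and 2 are the highest libraries for most subunits, and FP replicate 4 lies lowest of the FP libraries for every subunit.

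eIF2 carries the initiator tRNA, and its alpha subunit is the target of the stress kinases. Eif2s1 (alpha), Eif2s2 (beta) and Eif2s3x (gamma, X-linked) rose, whereas Eif2s3y, the Y-linked copy of the gamma gene, did not pass. Eif2s1 measured 149, 145, 99.3 and 91.3 CPM after FP and 70.8, 62.7 and 60.7 CPM after PBS, a log2 difference of 0.90 (adjusted p = 0.00316, SE 0.18). Eif2s2 measured 189, 171, 104 and 86.9 CPM after FP and 81.0, 73.5 and 69.0 CPM after PBS, a log2 difference of 0.88 (adjusted p = 0.0297, SE 0.27). Neither gene's groups overlapped, and the FP values again fell into a higher pair and a lower pair. Eif2s3x measured 65.1, 68.8, 48.9 and 41.4 CPM after FP and 43.8, 36.4 and 31.8 CPM after PBS, a log2 difference of 0.58 (adjusted p = 0.0306, SE 0.19), with FP replicate 4 below PBS replicate 1. Eif2s3y measured 87.4, 86.6, 61.1 and 63.5 CPM after FP and 64.6, 72.6 and 82.9 CPM after PBS, a log2 difference of 0.024 (adjusted p = 0.912, SE 0.15). The PBS order of the gamma copies was opposite: PBS replicate 1 was the highest for Eif2s3x and the lowest for Eif2s3y. Their ratio per kilobase within each library was 0.814, 0.868, 0.874 and 0.711 after FP and 0.741, 0.547 and 0.418 after PBS (exact permutation p = 0.0571, 0.105 after adjustment over the 11 ratios computed), so the groups overlapped and the difference did not pass. Other Y-linked genes, chosen after their values were seen, were present in every library, with log2 fold changes of -0.33 for Kdm5d, called lower but not without PBS replicate 3 (adjusted p = 0.0562), -0.23 for Ddx3y and -0.13 for Uty, and Xist was at most 0.525 CPM in any library. Eif2s2 did not pass with no filter (0.113), without FP replicate 2 (0.0770), without PBS replicate 2 (0.0820) and without PBS replicate 3 (0.102), and Eif2s3x did not pass with upper-quartile factors (0.0693), on library size alone (0.0945), without FP replicate 1 (0.0606), without FP replicate 2 (0.0783), without PBS replicate 2 (0.0945) and without PBS replicate 3 (0.127), the adjusted p standing in parentheses.

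eIF2B returns eIF2 to its active, GTP-bound form. Its genes Eif2b1, Eif2b2 and Eif2b5 rose, with FP above PBS in all libraries, and Eif2b3 and Eif2b4 did not pass. Eif2b1 measured 37.1, 34.2, 30.4 and 23.2 CPM after FP and 22.1, 19.3 and 16.8 CPM after PBS, a log2 difference of 0.68 (adjusted p = 0.0101, SE 0.17). Eif2b2 measured 39.1, 48.4, 39.6 and 31.8 CPM after FP and 31.1, 26.2 and 23.1 CPM after PBS, a log2 difference of 0.57 (adjusted p = 0.0162, SE 0.16). These encode regulatory subunits that sense phosphorylated eIF2. Eif2b5 measured 52.7, 64.7, 51.8 and 48.4 CPM after FP and 41.9, 43.9 and 40.4 CPM after PBS, a log2 difference of 0.37 (adjusted p = 0.0267, SE 0.12). Eif2b3 measured 19.6, 16.2, 14.2 and 13.8 CPM after FP and 17.0, 18.8 and 13.5 CPM after PBS, a log2 difference of -0.05 (adjusted p = 0.836, SE 0.17). Eif2b5 and Eif2b3 form the catalytic part of the complex, and the groups overlapped for Eif2b3. Eif2b4 had a log2 fold change of 0.42 (adjusted p = 0.0813), with FP replicate 4 (21.5 CPM) below every PBS library. It passed as higher with no filter (0.0391), without FP replicate 4 (0.00446) and with the replicate block (0.00159). Eif2b1 lost its call without PBS replicate 3 (0.0547), Eif2b2 on library size alone (0.0945), without PBS replicate 2 (0.0624) and without PBS replicate 3 (0.0823) and Eif2b5 with upper-quartile factors (0.181), on library size alone (0.492), without FP replicate 2 (0.0514), without PBS replicate 2 (0.0645) and without PBS replicate 3 (0.109), so that 0 of these genes passed without PBS replicate 3.

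eIF2A and eIF2D can bring tRNA to the ribosome apart from eIF2, and the former's gene rose. Eif2a measured 100.1, 85.5, 59.6 and 59.0 CPM after FP and 48.5, 43.8 and 46.0 CPM after PBS, a log2 difference of 0.72 (adjusted p = 0.0113, SE 0.18), which passed under all 15 alternatives. Eif2d measured 74.1, 81.2, 81.2 and 80.7 CPM after FP and 76.6, 77.9 and 83.2 CPM after PBS, a log2 difference of 0.0019 (adjusted p = 0.987, SE 0.082). Eif2a encodes a single-chain factor for unusual start codons, and Eif2d one for recycling and reinitiation. All libraries of Eif2d lay between 74.1 and 83.2 CPM.

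eIF1 and eIF1A keep the scanning ribosome open until it meets a start codon. The near-identical eIF1A genes Eif1ax and Eif1a rose together, and the eIF1 genes Eif1 and Eif1b did not pass. Eif1ax measured 91.7, 79.8, 57.8 and 55.3 CPM after FP and 41.2, 36.9 and 35.2 CPM after PBS, a log2 difference of 0.91 (adjusted p = 0.00284, SE 0.18). Eif1a measured 95.7, 81.8, 53.8 and 52.1 CPM after FP and 42.1, 34.7 and 37.0 CPM after PBS, a log2 difference of 0.90 (adjusted p = 0.00892, SE 0.21). Since these genes share most of their sequence their reads could be split between them; their ratio per kilobase was 0.759, 0.773, 0.849 and 0.839 after FP and 0.773, 0.843 and 0.752 after PBS, a difference that did not pass (exact permutation p = 0.686, 0.686 after adjustment). Eif1 measured 232, 283, 186 and 184 CPM after FP and 238, 204 and 185 CPM after PBS, a log2 difference of 0.081 (adjusted p = 0.708, SE 0.16), and the groups overlapped. Eif1 had the highest level per kilobase of all initiation factor genes after PBS, 99.6 ± 12.8 CPM per kilobase (SD, n = 3). Eif1ad measured 40.4, 43.8, 45.8 and 31.6 CPM after FP and 32.0, 28.7 and 31.7 CPM after PBS, with FP replicate 4 below PBS replicates 1 and 3. This relative of eIF1A had a log2 difference of 0.39 (adjusted p = 0.0432, SE 0.14), and it did not pass with upper-quartile factors (0.242), on library size alone (0.483), in limma-voom (0.0644), without FP replicate 1 (0.0591), without FP replicate 2 (0.0965), without FP replicate 3 (0.105), without PBS replicate 1 (0.0536), without PBS replicate 2 (0.155) and without PBS replicate 3 (0.104). Eif1b had a log2 fold change of 0.25 (adjusted p = 0.199).

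eIF4F is the cap-binding complex, made of the cap-binding protein eIF4E, the helicase eIF4A and the scaffold eIF4G. Eif4e, Eif4a1 and Eif4g1 rose, whereas Eif4a2, which encodes the other eIF4A helicase, fell. Eif4a1 measured 643, 632, 409 and 347 CPM after FP and 305, 284 and 266 CPM after PBS, a log2 difference of 0.83 (adjusted p = 0.0118, SE 0.21). Eif4a2 measured 252, 272, 209 and 269.9 CPM after FP and 408, 393 and 384 CPM after PBS, a log2 difference of -0.65 (adjusted p = 0.000883, SE 0.10). The groups did not overlap for either gene. Per kilobase of exon the ratio of Eif4a1 to Eif4a2 was 3.15, 2.86, 2.41 and 1.59 after FP and 0.921, 0.890 and 0.852 after PBS. On this scale Eif4a2 was thus slightly above Eif4a1 in every PBS library, and Eif4a1 was above Eif4a2 in every FP library. The divisor was the merged annotated exon (4334 bases for Eif4a1, 5338 for Eif4a2), and the length of the expressed transcripts was not measured. Exons of both genes also overlap small RNA genes on the same strand. The Eif4a1 to Eif4a2 ratio does not depend on how libraries are scaled. Its difference was 1.45 on the log2 scale (exact permutation p = 0.0286, 0.0786 after adjustment over the 11 ratios, where 0.0286 is the smallest p the 7 libraries allow). The ratios were chosen with earlier results known. Because Eif4a1 was higher and Eif4a2 lower in every FP library, their ratio had to separate the groups. Its p therefore adds nothing to the results of the single genes. Exons of Eif4a2 overlap exons of Rfc4 on the other strand, and Rfc4 rose by 1.63 on the log2 scale, opposite to Eif4a2. The processed pseudogene Eif4a-ps4, chosen after its value was seen, had 17 to 65 counts per library and a log2 fold change of 1.06, against 3036 to 7122 counts for Eif4a1.

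Eif4e measured 90.1, 74.0, 61.3 and 53.2 CPM after FP and 48.1, 48.6 and 41.4 CPM after PBS, a log2 difference of 0.59 (adjusted p = 0.0174, SE 0.17). Eif4g1 measured 459, 508, 471 and 401 CPM after FP and 357, 367 and 325 CPM after PBS, a log2 difference of 0.40 (adjusted p = 0.0118, SE 0.10). Both had FP above PBS in every library. Eif4g3 measured 177, 214, 226 and 213 CPM after FP and 239, 259 and 246 CPM after PBS, a log2 difference of -0.26 (adjusted p = 0.0601, SE 0.10), so that this scaffold gene lay below PBS in every FP library without passing the test. The ratio of Eif4g1 to Eif4g3 per kilobase was 3.93, 3.61, 3.16 and 2.85 after FP and 2.27, 2.15 and 2.00 after PBS (exact permutation p = 0.0286, 0.0786 after adjustment), higher in each FP library than in each PBS library. That separation follows from the values of the single genes, so this p is no separate result. Eif4g3 passed as lower with upper-quartile factors (0.00637), on library size alone (0.0127) and with the replicate block (0.0313). Eif4a1 lost its call with no filter (0.0594) and without PBS replicate 3 (0.0538), Eif4e on library size alone (0.0632) and without PBS replicate 3 (0.0808) and Eif4g1 with upper-quartile factors (0.0876), on library size alone (0.354) and without PBS replicate 3 (0.0743). Eif4a2 was called lower under all 15 alternatives.

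**Figure D4:**
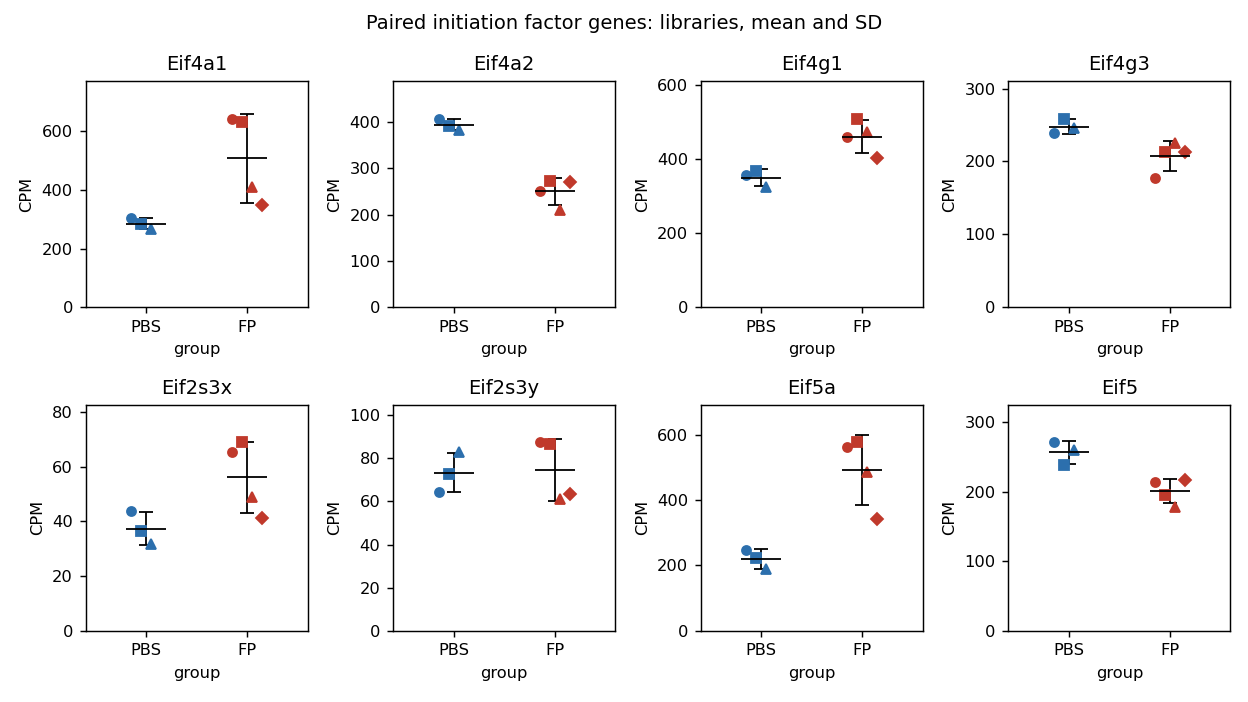
CPM of 8 initiation factor genes in each library (points; blue, PBS; red, FP; marker shape, replicate), with the mean and SD of each group. Eif4a1 rises where Eif4a2 falls, Eif4g1 rises while Eif4g3 lies lower in every FP library, Eif2s3x is called higher and Eif2s3y is not called, and Eif5a rises where Eif5 falls.

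The promoters of the oppositely moving helicase genes are shown because they let the pair be compared at the level of sequence. Windows of 300 bases around RefSeq start sites (GRCm38.p6) were matched to 39 of the 49 genes tested and searched on both strands for the E-box CACGTG, the letters bound by MYC and related factors, for the ETS motif CCGGAAG and for the cyclic AMP element TGACGTCA. A match to the ETS motif cannot share bases with a match to the others; an E-box and a cyclic AMP element can overlap. Each sequence is written 5′ to 3′ on the strand of the gene, from 250 bases upstream to the base before the start, with the E-box in capitals. The Eif4a1 window is chr11:69672424-69672673 on the minus strand and the Eif4a2 window is chr16:23107218-23107467 on the plus strand. The former holds CACGTG, and none of the 3 motifs is in the Eif4a2 window.
Eif4a1: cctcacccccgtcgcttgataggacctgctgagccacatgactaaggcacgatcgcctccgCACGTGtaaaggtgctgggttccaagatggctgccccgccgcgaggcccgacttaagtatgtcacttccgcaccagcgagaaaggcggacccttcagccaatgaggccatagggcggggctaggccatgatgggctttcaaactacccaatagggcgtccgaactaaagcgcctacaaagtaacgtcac
Eif4a2: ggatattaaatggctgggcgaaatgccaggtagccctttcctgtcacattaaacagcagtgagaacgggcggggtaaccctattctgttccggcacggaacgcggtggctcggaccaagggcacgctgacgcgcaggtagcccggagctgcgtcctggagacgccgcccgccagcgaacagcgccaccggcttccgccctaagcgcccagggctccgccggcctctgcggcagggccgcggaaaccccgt

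At least 1 E-box was found for 10 of the 39 matched genes (25.6%), among them 8 of the 24 matched genes called higher (33.3%), and for 11.5% of all matched genes tested and 11.4% of all matched genes called higher. Among the 13 matched initiation factor genes not called, 2 had an E-box (15.4%). The ETS motif was found for 15 of 39 (38.5%), against 20.2% of all matched genes tested, and the cyclic AMP element for 0 of 39, against 3.51%. ETS matches were held by 9 of the 24 initiation factor genes called higher (37.5%) and 6 of the 13 not called (46.2%). Across all genes the E-box was thus about as frequent among those called higher as among those tested. Stretches of 66 bases around an E-box upstream of a RefSeq start are given for 5 further genes called higher, so that its flanks can be compared. Eif4g1 and Eif5a have other matches too. The stretches of Eif4g1 and Eif5a lie inside the annotated span of the gene, as does part of that of Eif4h. For Eif4e, also called higher, the stretch was left out because more than 30 of its bases lie in an annotated exon. The stretches given lie at chr7:108934317-108934382 (plus strand), chr7:28981897-28981962 (minus), chr16:20672643-20672708 (plus), chr5:134639470-134639535 (minus) and chr11:69921425-69921490 (minus).
Eif3f: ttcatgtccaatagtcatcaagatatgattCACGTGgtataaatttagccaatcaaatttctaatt
Eif3k: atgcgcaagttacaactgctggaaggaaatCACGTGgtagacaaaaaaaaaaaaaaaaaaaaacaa
Eif4g1: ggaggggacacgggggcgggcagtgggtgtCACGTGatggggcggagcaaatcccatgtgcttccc
Eif4h: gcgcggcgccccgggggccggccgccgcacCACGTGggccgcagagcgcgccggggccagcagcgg
Eif5a: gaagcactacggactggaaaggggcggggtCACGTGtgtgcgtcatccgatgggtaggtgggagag

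Around eIF4F stand helpers and relatives of its subunits. Eif4h, Eif4a3 and Eif4e3 rose, and Eif4b, Eif4g2 and Eif4e2 did not pass. Eif4h measured 311, 321, 300.1 and 242 CPM after FP and 173, 176 and 158 CPM after PBS, a log2 difference of 0.80 (adjusted p = 0.000399, SE 0.11), which had the smallest p of all initiation factor genes. Eif4b measured 385, 489.5, 382 and 353 CPM after FP and 383, 346 and 332 CPM after PBS, a log2 difference of 0.19 (adjusted p = 0.246, SE 0.12). Both encode cofactors that stimulate the eIF4A helicase; the groups overlapped for Eif4b. Eif4a3 measured 116, 142, 119.6 and 93.2 CPM after FP and 77.4, 66.6 and 63.1 CPM after PBS, a log2 difference of 0.77 (adjusted p = 0.00169, SE 0.14). Eif4e3 measured 36.8, 35.1, 33.9 and 32.2 CPM after FP and 26.7, 21.5 and 23.2 CPM after PBS, a log2 difference of 0.54 (adjusted p = 0.00479, SE 0.12). Eif4a3 belongs to the exon junction complex left on mRNA by splicing, and Eif4e3 encodes an alternative cap-binding protein; neither gene's groups overlapped. Eif4e3 shares exons with a gene model on its own strand, and did not pass on library size alone (0.0914). Eif4g2, an eIF4G relative that does not bind eIF4E, had a log2 fold change of 0.26 (adjusted p = 0.107), and passed as higher without PBS replicate 1 (0.0476) and with the replicate block (0.0477). Eif4e2, a cap-binding protein that represses translation, had 0.25 (adjusted p = 0.0894) and passed without FP replicate 4 (0.0146) and with the replicate block (0.00997). Eif4e1b had 0 counts in all 7 libraries, where 3 counts, the limit a count of 0 allows, are 0.214 to 0.322 CPM.

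The eIF4E-binding proteins keep eIF4E from eIF4G until mTOR releases them by phosphorylation, a step that RNA levels do not show. They are encoded by Eif4ebp1, Eif4ebp2 and Eif4ebp3, and the repressor group also holds Eif4enif1. None of the 4 genes was called in edgeR, although Eif4ebp1 and Eif4enif1 were higher at an unadjusted p under 0.05. Eif4ebp1 measured 9.14, 7.37, 5.77 and 5.28 CPM after FP and 4.33, 5.28 and 4.29 CPM after PBS, a log2 difference of 0.56 (adjusted p = 0.0818, SE 0.23). Eif4ebp2 measured 289, 382, 357 and 337 CPM after FP and 337, 309.7 and 301 CPM after PBS, a log2 difference of 0.11 (adjusted p = 0.432, SE 0.11). The groups overlapped for both. Eif4ebp3 measured 2.58, 0.444, 1.83 and 1.28 CPM after FP and 2.12, 2.13 and 2.45 CPM after PBS, a log2 difference of -0.57 (adjusted p = 0.321, SE 0.43), from 5 to 29 counts per library. Eif4enif1 measured 106, 116, 122 and 111 CPM after FP and 96.5, 99.5 and 97.1 CPM after PBS, a log2 difference of 0.22 (adjusted p = 0.0530, SE 0.081), and every FP library lay above every PBS library. Eif4enif1 encodes the protein that carries eIF4E into the nucleus and into P-bodies. It passed as higher with DESeq2 size factors (0.0402), in DESeq2 (0.0414), without FP replicate 1 (0.0306) and without FP replicate 4 (0.0479), and Eif4ebp1 did so without FP replicate 4 (0.0356) and with the replicate block (0.0239). Per kilobase, Eif4ebp2 (54.6 ± 3.21 CPM after PBS, SD, n = 3) was above Eif4ebp1 (2.11 ± 0.255) and Eif4ebp3 (3.0 ± 0.256). The ratio of Eif4ebp2 to its target Eif4e per kilobase was 3.33, 5.37, 6.04 and 6.59 after FP and 7.26, 6.62 and 7.55 after PBS; each FP library lay below each PBS library, but the difference did not pass (exact permutation p = 0.114, 0.180 after adjustment).

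The late-acting factors split. Eif5a measured 563, 576, 486 and 342 CPM after FP and 249, 224 and 188 CPM after PBS, a log2 difference of 1.16 (adjusted p = 0.000815, SE 0.18), the largest rise of any initiation factor gene at 2.23-fold. Eif5a (ENSMUSG00000078812.10, GRCm38 chr11:69916714-69921958, minus strand) encodes the hypusine-bearing factor that relieves stalled ribosomes during elongation. Eif6 measured 72.4, 81.2, 59.4 and 49.6 CPM after FP and 40.2, 34.5 and 34.8 CPM after PBS, a log2 difference of 0.85 (adjusted p = 0.00249, SE 0.16). Eif6 keeps large ribosomal subunits from joining too early. Eif5 measured 214, 196, 178 and 217 CPM after FP and 271, 239 and 261 CPM after PBS, a log2 difference of -0.35 (adjusted p = 0.0150, SE 0.10). Eif5 (ENSMUSG00000021282.16, GRCm38 chr12:111538016-111546752, plus strand) encodes the factor that triggers GTP hydrolysis on eIF2 at the start codon, and all its FP values lay below all its PBS values. It lost its call without PBS replicate 1 (0.0772) and without PBS replicate 3 (0.0635). Per kilobase its ratio to Eif2s1, the alpha subunit gene of its partner, was 1.04, 0.982, 1.30 and 1.72 after FP and 2.78, 2.76 and 3.12 after PBS (exact permutation p = 0.0286, 0.0786 after adjustment). Since Eif5 was lower and Eif2s1 higher in every FP library, that ratio had to separate the groups, and its p is no separate result. Eif5b, the GTPase of subunit joining, had a log2 fold change of 0.10 (adjusted p = 0.492), and Eif5a2, the other eIF5A gene, 0.13 (adjusted p = 0.580). The level of Eif5a was 40.8, 48.2 and 29.6 times that of Eif5a2 per kilobase in the PBS libraries and 84.6, 79.8, 93.6 and 59.0 times in the FP libraries (exact permutation p = 0.0286, 0.0786 after adjustment).

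**Figure D5:**
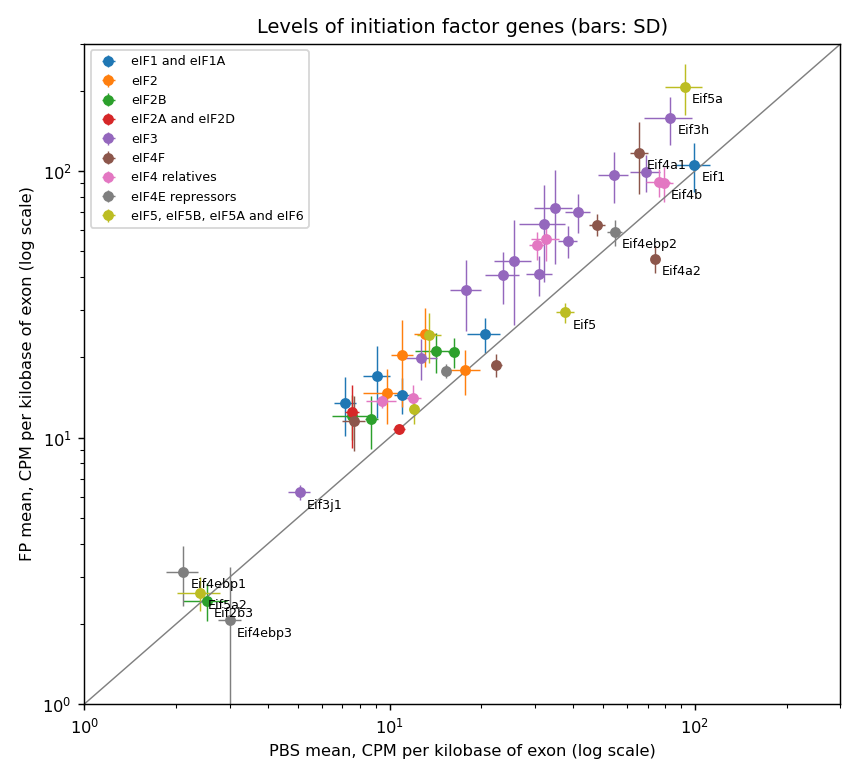
Mean level of each tested initiation factor gene per kilobase of annotated exon after PBS (x axis) and after FP (y axis), both on log scales, with SD bars and colour by complex; the line marks equal levels. Most genes lie above the line, Eif4a2 and Eif5 lie below it, and Eif5a and Eif3h are the highest after FP.

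Genes that act with the initiation factors are given by lists, each to be read beside the 21.0% of all genes called higher and the 18.5% called lower. The list called helpers here held 17 genes of scanning, mRNA circularization and their control, which are not all activators. Of these 6 were higher (35.3%), 0 lower and 11 did not pass in edgeR (median log2 fold change 0.29). Larp1, an mTOR-controlled binder of ribosomal protein mRNAs, rose by 0.69, the poly(A)-binding protein gene Pabpc1 by 0.51 and Bzw1, an eIF5 mimic, by 0.70. In the list of eIF2 kinases, phosphatase subunits and regulators of the kinases 3 of 8 genes were higher (37.5%), 2 lower (25.0%) and 3 did not pass (median -0.0041). Eif2ak2, the kinase gene PKR of the interferon response, rose by 0.85, while the amino acid sensor gene Eif2ak4 fell by 0.65 and Impact, which encodes an inhibitor of that sensor's activation, fell by 0.46. Ppp1ca, a phosphatase gene, is listed at 0 in every library and gives no value. Of the targets of the stress response that follows eIF2 phosphorylation 4 of 12 were higher (33.3%), 0 lower (1 at an unadjusted p under 0.05, 0 in DESeq2 and limma-voom) and 8 did not pass (median 0.22): Psat1 and Phgdh of serine synthesis rose by 1.49 and 1.32 and Trib3 by 1.56, while Atf4 itself averaged 91.2 ± 17.3 CPM in the FP libraries (SD, n = 4), against 90.9 ± 11.7 CPM in the PBS libraries (SD, n = 3).

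In the mTOR and MNK list, whose kinases act on eIF4E, eIF4B and the repressors, 6 of 21 genes were higher (28.6%), 3 lower (14.3%) and 12 did not pass (median 0.19), shares near those of all genes. The kinase gene Rps6ka1 rose by 0.73 and Lamtor5, of the lysosomal scaffold, by 1.25, whereas Deptor, an mTOR inhibitor, fell by 1.87. Elongation and termination factors had 6 of 12 genes higher (50%), 0 lower and 6 not passing (median 0.45), with Etf1 at 0.67, Eef2 at 0.70 and Eef1d at 0.71. In the list of polyamine and hypusine genes, which supply the modification of eIF5A, 3 of 10 were higher (30%), 1 lower and 6 did not pass (median 0.22). Azin1, Oaz1 and Odc1, which set polyamine synthesis, rose by 0.71, 0.78 and 0.67; Sat1, which breaks polyamines down, fell by 0.72, and the hypusine enzyme genes Dhps (0.26) and Dohh (0.14) did not pass. Cytosolic tRNA synthetase genes, which charge the tRNAs, were higher in 15 of 22 cases (68.2%) and lower in 0 (median 0.56); Wars, Aars and Vars rose by 1.43, 0.73 and 0.81. In the lists of helpers, elongation and termination factors and tRNA synthetases, 0 genes were lower at an unadjusted p under 0.05 in edgeR, and 0 were called lower in DESeq2 or limma-voom.

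Single libraries moved these counts. Without PBS replicate 3 the helpers had 1 gene higher, the elongation and termination factors 2 and the tRNA synthetases 10, and without PBS replicate 2 these were 2, 4 and 11. Without FP replicate 4 they were 9, 10 and 17, and without FP replicate 2 they were 4, 4 and 12. In the list of eIF2 kinases, phosphatase subunits and regulators 1 gene was higher and 1 lower without PBS replicate 2, and likewise without PBS replicate 3. Without FP replicate 2 or FP replicate 3, 2 genes of that list were higher. In the mTOR and MNK list 1 gene was lower and 4 higher without PBS replicate 2, and likewise without PBS replicate 3. Without FP replicate 1 or PBS replicate 1 that list had 2 genes lower, and 4 genes were higher without FP replicate 1 or FP replicate 2. In the polyamine and hypusine list 0 genes were called lower by edgeR without PBS replicate 2 or PBS replicate 3, and 1 by edgeR, DESeq2 and limma-voom on all libraries. Among the genes named from the lists, with the adjusted p in parentheses, calls were lost for Pabpc1 on library size alone (0.116) and without PBS replicate 3 (0.0544); Bzw1 without PBS replicate 2 (0.0511) and without PBS replicate 3 (0.0624); Impact without PBS replicate 2 (0.0664) and without PBS replicate 3 (0.0567). They were lost as well for Eef1d without PBS replicate 3 (0.0541); Sat1 with no filter (0.0735), without PBS replicate 2 (0.0689) and without PBS replicate 3 (0.0503).

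Counts of some genes are less certain. Exons of 11 of the 51 genes overlap exons of a gene on the other strand, 5 of them called higher (Eif1ad, Eif2a, Eif3d, Eif3m and Eif6), and the strand setting of the counting is not given in the sources used here. Exons of 9 of the 51 genes overlap a gene on the same strand, mostly a small RNA.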

How the data were processed

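Libraries were made from 25 ng of total RNA after removal of ribosomal RNA. Raw counts per gene were made by the authors with STAR 2.5.0b (2.5.0 in the design text) on GRCm38 and featureCounts 1.5.0 with GENCODE M13 genes, per the labels and the submitters' processing notes. The strand setting and the treatment of multi-mapped reads are not given in the sources used here. Totals were 9956509 to 13429878 counts per library, and 762 identifiers without a symbol held at most 0.144% of them. Count intervals and limits cover counting error only. The deposited counts of 4 FP and 3 PBS libraries, grouped by the labels, were tested with edgeR 4.0.16 (R 4.3.3; filterByExpr, TMM factors, robust quasi-likelihood test, Benjamini-Hochberg adjustment over 15954 genes, threshold 0.05). The pipeline was tested on simulated data. Alternatives, 15 in number, were DESeq2 1.42.0, limma-voom 3.58.1, other scaling, other filters, a replicate block, and leaving out each library. CPM are scaled by TMM factors; levels between genes are CPM per kilobase of merged exon (GENCODE M21, newer than the authors' annotation, same build). For 11 within-library ratios, a two-sided exact permutation test over 35 assignments compared mean log2 ratios. Promoter windows are from RefSeq (GRCm38.p6); 39 of 51 genes matched. The members, lists and ratios were chosen with earlier results of these data known. The rule for named genes was: values in every library for the called members of each complex with the smallest p (4 at most), for its largest and smallest log2 fold change, for each eIF4E repressor and for Eif2s3x and Eif2s3y; from each list, the 3 called genes with the smallest p, with Mki67 and Foxp3. Library values of Eif3e and Eif4g3, and Atf4, Sat1, Dhps, Dohh, Ppp1ca and Rfc4, are given outside that rule and were chosen after their values were seen. Markers of erythroid cells (0 of 6 called by edgeR, DESeq2 or limma-voom, and 0 at an unadjusted p under 0.05), of CD8 T and NK cells (1 of 3 lower), of dendritic cells and neutrophils (2 of 2 lower), of Tregs and T cells (6 of 10 higher) and of B cells (1 of 9 higher, 3 lower) were checked as well.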

Additional observations from a re-analysis of the deposited data

Results flagged for a closer look

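Eif2d in FP replicate 1 stood apart from its group: it measured 74.1 CPM there and between 80.7 and 81.2 CPM in the other FP libraries, a gap of 0.918 of the group's range where 0.829 is the critical value for 4 samples. It was 1 of 51 groups of values tested, and chance sets apart about 1 in 20.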

How the results depend on the processing

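Under the 15 alternatives, 14 of the 29 higher genes and 1 of the 2 lower genes kept their calls, and the cause of the changes was not tested. With library size alone 19 initiation factor genes were higher, with eIF2B and eIF4F at 1 each; genes of eIF4F called lower numbered 2 with upper-quartile factors, library size alone or the block. Of the eIF4E repressors 1 was higher with DESeq2 size factors, in DESeq2's test and with the block. The replicate numbers were not taken to pair the samples. Deviations of samples with the same number correlated at 0.219, 0.070 and 0.097. Those of FP and PBS samples with unlike numbers correlated at -0.10, -0.17, 0.21, -0.32, -0.097 and 0.021. The fit with the replicate block called 35 members higher and 3 lower (7870 genes in all), with 5 eIF4 relatives higher. Leaving out each library in turn gave 4088 to 7277 genes called, 16 to 35 members higher and 1 to 2 lower, 1 to 3 eIF2, 0 to 4 eIF2B, 7 to 13 eIF3, 0 to 3 eIF4F and 0 to 2 eIF4E repressor genes higher, and 0 to 1 of the eIF5 group lower. The log2 fold changes that turned sign were all of uncalled genes. With upper-quartile factors they were -0.13 for Eif1, -0.19 for Eif2s3y, -0.20 for Eif2d, -0.025 for Eif4b, -0.092 for Eif4ebp2, -0.081 for Eif5a2, -0.11 for Eif5b and -0.068 for Foxp3. On library size alone they were -0.20 for Eif1, -0.025 for Eif1b, -0.27 for Eif2s3y, -0.26 for Eif2d, -0.091 for Eif4b, -0.029 for Eif4e2, -0.019 for Eif4g2, -0.15 for Eif4ebp2, -0.047 for Eif4enif1, -0.15 for Eif5a2, -0.18 for Eif5b and -0.13 for Foxp3. With the filter of 1 CPM in 3 libraries they were -0.00012 for Eif2d. With the replicate block they were 0.016 for Eif2b3 and -0.0067 for Eif2d. Leaving out each library in turn, values ran from -0.055 to 0.12 for Eif2s3y, from -0.059 to 0.21 for Eif1, from -0.0087 to 0.043 for Eif2d, from -0.17 to 0.064 for Eif2b3 and from -0.00646 to 0.0761 for the log2 ratio of Eif1ax to Eif1a, FP minus PBS. Over all alternatives, 645 values of single genes kept direction and side of the threshold, 58 no longer passed, 27 newly passed and 35 turned sign. No ratio passed after adjustment, with all libraries or with any left out, and with 6 libraries the exact test could not have passed.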
